A study of Homo sapiens with 18 samples.

Results

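Cells of the human line OCI-AML1, derived from acute myeloid leukaemia, were treated with AML874 or with DMSO for 24 h, and the 3 libraries of each group were compared across all genes. These 6 libraries of polyadenylated RNA were chosen by their titles from the 18 of the series, which also hold AML874 and DMSO at 8 h and SEL120-34A at both times. The labels give the cells as unmodified (WT), AML874 only as a code name, and no dose for either compound. They do not say that replicates came from separate cultures, so the p-values reflect only how far these libraries vary, which may be technical. Levels are CPM, counts scaled to library size with TMM factors, changes are on the log2 scale, each ± its standard error (SE) with n = 3 libraries a group, and a gene was called when its p, adjusted over all genes by Benjamini-Hochberg, was under 0.05 in edgeR's quasi-likelihood test.

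The series title concerns inhibition of the Mediator kinases. Mediator is the complex that carries signals from DNA-bound transcription factors to RNA polymerase II. CDK8 or its paralogue CDK19, with cyclin C, MED12 and MED13, forms a kinase module that binds Mediator reversibly, phosphorylates transcription factors such as STATs and SMADs, and can both restrain and promote transcription. In myeloid leukaemia cells this module is known for its hold over lineage genes near large enhancers, and SEL120-34A is a known inhibitor of both kinases.

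Gene counts ran from 129691351 to 138609878 per DMSO library and from 116856510 to 131963611 per AML874 library, and 27252 to 28631 genes had a count. The myeloid genes PTPRC, CD33, SPI1, CEBPA, MPO and LYZ were detected in every library, while ANPEP, often found on such cells, was at or near 0. CSF2RA had 0 uniquely placed reads in these libraries, but a mean of 2.19 TPM with DMSO and 1.32 TPM with AML874 in the deposited estimates. Replicate 1 of AML874 stood apart from the other 17 libraries of the series by traces of transcripts that the others lack. In it, 47 genes reached 0.1 CPM that stayed under 0.03 CPM in every other library, led by EEF1A2, MAL2 and KRT19 at 0.743, 0.508 and 0.508 CPM, with EPCAM and KRT8, which are also genes of epithelial cells. They held 1397 counts, or 10.6 CPM together. None of the 47 was in the fit, which follows from how they were chosen, since the filter needs counts in several libraries. Any RNA from the same source of genes that OCI-AML1 also expresses would be in the fit, and this was not tested. Epithelial and stromal markers summed to 2.03 CPM in this library, 0.197 and 0.102 CPM in the other AML874 libraries and 0.0505 to 0.123 CPM with DMSO. Without this library 4330 genes were higher and 4499 lower. Among summed marker levels of other cell types, erythroid and megakaryocyte markers were at 8.15 to 9.13 CPM with DMSO and 9.96 to 10.4 CPM with AML874, with the globin genes HBA1, HBA2 and HBB at 0. B lineage markers summed to 2.40 to 2.88 and 3.85 to 4.50 CPM, and mast cell, basophil and eosinophil markers to 3.23 to 4.12 and 2.68 to 2.99 CPM. T and NK cell markers summed to 91.2 to 98.7 CPM with DMSO and 96.5 to 100.4 CPM with AML874, of which NCAM1 made up 83.4 to 89.5 CPM. The part of these cells in the results was not tested. In bulk RNA, fewer cells of a type and less RNA per cell cannot be told apart.

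AML874 changed 9799 of the 20920 genes tested, which is 46.8%. Of all genes tested, 4833 (23.1%) were higher and 4966 (23.7%) lower, and these shares are the background for the lists below. Most changes were small, with a median absolute log2 change of 0.28 among called genes. Large changes were mostly rises: 892 genes (4.26%) rose and 187 (0.894%) fell at least 2-fold, and 168 rose and 12 fell at least 4-fold. The rises of this size were mainly of weak genes, since 727 of the 892 had a mean under 1 CPM. In 11193 genes (53.5%) the libraries of the groups did not overlap. For many genes named below, such as those with the largest changes, this was a condition of being named. Where it is mentioned with them it describes the values and is no added support. Among protein-coding genes 3259 (24.4%) rose and 4517 (33.9%) fell, and among the 9073 of at least 10 CPM 2179 (24%) rose and 3775 (41.6%) fell. Longer transcripts had lower changes. Among protein-coding genes of at least 1 CPM, the median log2 change was 0.0046 in the shortest and -0.083 in the longest of 4 length classes, with 791 rises and 718 falls in the first and 581 and 1416 in the last.

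The 6 promoter stretches below belong to genes that moved and that come from groups with a known shared element. They are the 250 bases before the start of each gene in RefSeq GRCh38.p14, 5′ to 3′ on the gene's own strand. In the first 3 stretches, from genes of MHC class II antigen presentation, the capitals mark the CCAAT box (CCAAT, or ATTGG on the other strand), the letters that factor NF-Y binds. In the next 2, from genes that interferons induce, they mark the interferon-stimulated response element, searched as GAAANNGAAA on both strands. In the last they mark CArG boxes, the element of serum response factor.
HLA-DMA (chr6:32953098-32953347, minus strand): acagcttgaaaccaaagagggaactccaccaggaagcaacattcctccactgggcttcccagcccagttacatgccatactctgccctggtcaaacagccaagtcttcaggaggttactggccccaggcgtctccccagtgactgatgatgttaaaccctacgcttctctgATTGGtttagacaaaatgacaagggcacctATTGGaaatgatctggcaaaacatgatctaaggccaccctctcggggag
HLA-DMB (chr6:32941029-32941278, minus strand): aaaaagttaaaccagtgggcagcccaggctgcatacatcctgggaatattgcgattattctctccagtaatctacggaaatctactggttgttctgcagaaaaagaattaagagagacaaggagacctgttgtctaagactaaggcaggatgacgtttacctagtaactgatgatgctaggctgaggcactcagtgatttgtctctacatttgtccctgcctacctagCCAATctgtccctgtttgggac
CD74 (chr5:150412911-150413160, minus strand): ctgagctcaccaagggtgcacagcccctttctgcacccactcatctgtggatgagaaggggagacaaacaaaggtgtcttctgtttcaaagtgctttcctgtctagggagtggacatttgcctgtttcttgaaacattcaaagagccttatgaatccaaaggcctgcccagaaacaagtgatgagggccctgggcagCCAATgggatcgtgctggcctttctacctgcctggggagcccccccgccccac
RSAD2 (chr2:6877527-6877776, plus strand): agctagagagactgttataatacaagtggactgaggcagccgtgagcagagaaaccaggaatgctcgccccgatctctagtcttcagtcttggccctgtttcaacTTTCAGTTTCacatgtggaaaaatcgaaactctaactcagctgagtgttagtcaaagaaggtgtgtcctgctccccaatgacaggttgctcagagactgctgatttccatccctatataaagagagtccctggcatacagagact
IFIT3 (chr10:89332279-89332528, plus strand): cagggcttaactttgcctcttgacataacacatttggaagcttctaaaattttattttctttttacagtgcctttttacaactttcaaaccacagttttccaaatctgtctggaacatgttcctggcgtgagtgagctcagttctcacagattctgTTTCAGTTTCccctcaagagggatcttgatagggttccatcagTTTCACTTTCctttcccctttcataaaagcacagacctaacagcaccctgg
EGR1 (chr5:138465229-138465478, plus strand): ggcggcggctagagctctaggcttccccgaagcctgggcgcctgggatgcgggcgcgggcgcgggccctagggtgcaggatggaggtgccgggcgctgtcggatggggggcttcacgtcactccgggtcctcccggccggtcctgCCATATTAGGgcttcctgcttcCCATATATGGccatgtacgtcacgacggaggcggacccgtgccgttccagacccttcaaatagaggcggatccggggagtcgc

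These stretches and those of other genes are called windows here, and 8 of the 9 class II chain genes had one. A CCAAT box was present in 7 of 9 windows of class II chain genes (77.8%), in 11 of 19 windows of class II loading and control genes (57.9%) and in 32% of all 35116 windows. The interferon element was in 27 of 44 windows of interferon-stimulated genes (61.4%), in 0 of the class II chain windows and in 3.02% of all windows. CArG boxes were in 2 of 9 windows of the EGR and NAB genes and in 1.16% of all. Some genes have several starts and so several windows. The other RSAD2 window and the window of GBP4, a gene with a large rise, hold 0 interferon elements and are not printed. The stretches printed above all hold a match, so they do not show how common the elements are. These matches describe the sequences and do not show that a factor was bound.

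Antigen presentation by MHC class II rose as a group. Of the 9 chain genes, which encode the surface molecules that show peptides to helper T cells, 8 rose and 0 fell, with a median log2 change of 0.80 against 0.0036 over all genes. Of the 15 loading and control genes, 8 rose and 3 fell, with a median of 0.16. HLA-DRA, the alpha chain of HLA-DR, was at 253, 237 and 237 CPM in the DMSO libraries and 393, 397 and 389 CPM in the AML874 libraries, a log2 rise of 0.70 ± 0.03 (edgeR adjusted p = 1.88e-21). HLA-DPB1 was at 49.8, 47.9 and 48.0 CPM with DMSO and 83.5, 85.0 and 85.3 CPM with AML874, a rise of 0.80 ± 0.03. In both genes each AML874 library lay above each DMSO library, and the 3 libraries of a group were close together. HLA-DPA1, HLA-DRB1 and HLA-DRB5 rose by 0.78, 0.40 and 0.40, and HLA-DQA1, HLA-DQA2 and HLA-DQB1, at about 1 CPM or less, by 1.49, 0.92 and 0.97. HLA-DQB1 no longer passed without replicate 1 of DMSO (a log2 change of 0.72) or without replicate 1 of AML874 (0.83). HLA-DQB2 was at 0.0146, 0.0149 and 0.0835 CPM with DMSO and 0.0834, 0.145 and 0.0935 CPM with AML874 and did not pass (adjusted p = 0.0557). Some HLA genes are near-identical to each other, and reads that mapped to several places were not given to any gene, so the levels of such genes are uncertain. How far this touches each gene above was not tested.

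The largest rise of the pathway was in a gene of peptide loading. HLA-DOA, whose product modulates the loading step, was at 1.55, 1.08 and 1.26 CPM in the DMSO libraries and 5.81, 5.67 and 5.54 CPM in the AML874 libraries, a log2 rise of 2.13 ± 0.11 (edgeR adjusted p = 5.08e-18). HLA-DMA and HLA-DMB, whose promoters with their CCAAT boxes are printed above, encode the loading catalyst. HLA-DMA was at 10.0, 10.6 and 10.9 CPM with DMSO and 22.2, 22.0 and 22.1 CPM with AML874 and rose by 1.07 ± 0.05, and HLA-DMB was at 3.82, 4.02 and 3.91 CPM with DMSO and 8.55, 9.89 and 9.90 CPM with AML874 and rose by 1.27 ± 0.08. The groups did not overlap in any of these genes, and the DMSO libraries of HLA-DMA and HLA-DMB were close together. CD74, the invariant chain that escorts class II molecules, went from 1049.7 ± 43.5 to 1389.7 ± 39.4 CPM (mean ± SD, n = 3), a rise of 0.40 ± 0.03. CIITA, the master activator of this gene set, was at 96.9, 99.9 and 94.3 CPM with DMSO and 183, 183 and 171 CPM with AML874 and rose by 0.88 ± 0.04. Of the factors that hold CIITA at these promoters, RFX5 and RFXANK rose by 0.28 and 0.16, RFXAP was at 0.01 ± 0.04 and did not pass, and NFYA, NFYC and CREB1 fell by 0.21, 0.13 and 0.18.

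MHC class I presentation, which shows peptides from inside the cell, rose in 15 of 20 genes and fell in 0, with a median of 0.27. The peptide transporter genes TAP1 and TAP2 rose by 0.71 ± 0.03 and 0.35 ± 0.03, the immunoproteasome subunit PSMB9 by 0.66 ± 0.04 and the trimming peptidase ERAP2 by 0.64 ± 0.03. TAP1 was at 51.6, 49.0 and 48.1 CPM with DMSO and 80.5, 80.9 and 81.6 CPM with AML874, with no overlap of the groups. Some members did not move with them: HLA-B was at -0.02 ± 0.03 and B2M, the shared light chain, at -0.02 ± 0.03, and neither passed. NLRC5, the class I counterpart of CIITA, was at -0.04 ± 0.06 and did not pass.

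Genes that interferons induce rose more often than they fell, and some fell. Of the 39 interferon-stimulated genes tested, 18 rose and 9 fell, with a median of 0.17, and all 7 guanylate-binding proteins and related GTPases tested rose, with a median of 1.76. RSAD2, which encodes the antiviral enzyme viperin, was at 1.78, 2.26 and 1.93 CPM in the DMSO libraries and 8.63, 8.89 and 8.92 CPM in the AML874 libraries, a log2 rise of 2.15 ± 0.08 (edgeR adjusted p = 3.09e-21). GBP4 was at 2.54, 2.80 and 2.31 CPM with DMSO and 10.7, 12.0 and 11.5 CPM with AML874 and rose by 2.16 ± 0.08, and GBP5 was at 0.410, 0.283 and 0.288 CPM with DMSO and 0.986, 1.31 and 1.05 CPM with AML874 and rose by 1.76 ± 0.20. The groups were far apart in each of these genes. An interferon element was in 1 of 5 windows of the guanylate-binding genes. GBP1 had 0 counts in the 3 DMSO libraries and 15, 8 and 25 in the AML874 libraries, so it was at least 17.6-fold higher when DMSO was set to 3 counts over the group (edgeR adjusted p = 7.12e-06). IFI44L rose by 2.68 ± 0.66, OAS2, an RNA sensor, by 1.76 ± 0.21, SAMD9L, a restriction factor, by 1.01 ± 0.10, and IFIT1 and IFIT3, which bind viral RNA, by 1.29 ± 0.18 and 0.87 ± 0.07.

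The other rises included IFI44 by 1.47 and CMPK2 by 0.77, and 9 members fell. MX2, a relative of the antiviral GTPase MX1, fell by 0.43 ± 0.09, IFITM2, a block to viral entry, by 0.30 ± 0.04, and USP18, which limits the interferon receptor, by 0.52 ± 0.13. ISG15, a ubiquitin-like protein, was at 0.06 ± 0.06 and MX1 at -0.29 ± 0.15, and neither passed. Of 23 genes of interferon signalling, 10 rose and 5 fell. IRF1, a transcription factor downstream of interferon gamma, was at 49.8, 52.0 and 49.9 CPM with DMSO and 101, 105 and 104 CPM with AML874, a rise of 1.03 ± 0.03 (edgeR adjusted p = 7.04e-25). Its values were close together within each group and far apart between the groups. Its relative IRF8, a regulator of monocytes and dendritic cells, rose by 0.66 ± 0.02, and the receptor chains IFNGR1 and IFNAR2 by 0.50 ± 0.03 and 0.46 ± 0.04, while IFNGR2 fell by 0.18 ± 0.04.

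**Figure D1:**
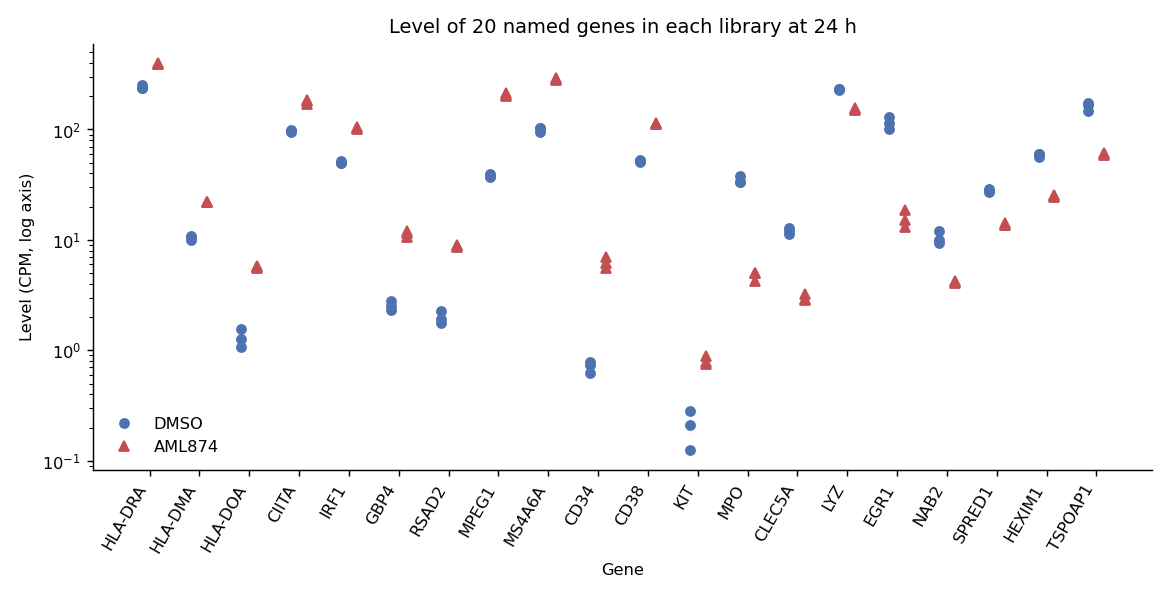
Level of 20 genes in each library at 24 h, in CPM on a log axis, with circles for the 3 DMSO libraries and triangles for the 3 AML874 libraries. The groups do not overlap in any of the 20 genes, from KIT (mean 0.206 against 0.814 CPM) to HLA-DRA (242 against 393 CPM). For many of these genes no overlap was a condition of being named.

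A stretch of chromosome 11 held several of the largest rises. MPEG1 (ENSG00000197629.6, GRCh38 chromosome 11, 59208510 to 59212951), which encodes a pore-forming protein of macrophages, was at 39.4, 37.2 and 37.8 CPM in the DMSO libraries and 213, 207 and 199.6 CPM in the AML874 libraries, a log2 rise of 2.44 ± 0.04 (edgeR adjusted p = 1.43e-32). Its neighbour DTX4, a ubiquitin ligase gene, overlaps its end and was at 32.1, 30.1 and 29.5 CPM with DMSO and 94.5, 91.6 and 84.8 CPM with AML874, a rise of 1.56 ± 0.04. The MS4A genes, which encode membrane proteins related to CD20, lie further along, and 6 of the 8 tested rose. MS4A6A was at 95.6, 102 and 103 CPM with DMSO and 279, 291 and 288 CPM with AML874 and rose by 1.51 ± 0.03. MS4A4A was at 13.4, 13.5 and 13.7 CPM with DMSO and 52.5, 53.5 and 50.7 CPM with AML874 and rose by 1.95 ± 0.04. In each of these genes the lowest AML874 library was well above the highest DMSO library. MS4A7 rose by 1.22, MS4A14 by 1.55, MS4A4E by 2.18 and MS4A6E by 1.75, the last 3 from under 1 CPM. MS4A3, a gene of granulocyte progenitors in the same cluster, fell by 0.17 ± 0.06, a call that was lost without replicate 3 of DMSO (-0.15) or replicate 1 of AML874 (-0.12). Over the whole stretch from DTX4 to the end of the cluster (GRCh38 chromosome 11, 59171430 to 60801305, a window chosen after its values were seen), 12 of 21 genes tested rose and 3 fell. The other 2 falls were PATL1 (-0.21) and STX3 (-0.26).

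A second group of neighbours was on chromosome 3, where the chemokine receptor genes CCR1 and CCR2 lie close together. CCR1 was at 8.51, 7.17 and 7.00 CPM with DMSO and 20.5, 19.0 and 15.8 CPM with AML874 and rose by 1.29 ± 0.14, and CCR2, the receptor for CCL2, was at 126, 112 and 114 CPM with DMSO and 204, 194 and 175 CPM with AML874 and rose by 0.71 ± 0.06. No AML874 library overlapped a DMSO library in either gene. On chromosome 17, MPO (58269856 to 58280935) and TSPOAP1 (58301228 to 58328760), an adaptor gene, are close neighbours that both fell, as given next.

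The myeloid state of the cells changed in both directions. MPO, the peroxidase of primary granules and a marker of the granulocyte lineage, was at 33.6, 37.6 and 33.7 CPM in the DMSO libraries and 4.25, 5.07 and 5.07 CPM in the AML874 libraries, and fell by 2.87 ± 0.07 (edgeR adjusted p = 5.23e-26). TSPOAP1 was at 147, 166 and 175 CPM with DMSO and 59.7, 59.3 and 61.7 CPM with AML874 and fell by 1.43 ± 0.06. Every AML874 library was far below every DMSO library in both genes. Primary granule genes had a median of -0.15 (8 of 14 fell, 2 rose). AZU1, an antimicrobial granule protein, fell by 1.48 ± 0.14, LYZ, which encodes lysozyme, by 0.58 ± 0.02, and the weak PRTN3, a granule protease, by 2.22 ± 0.44. CTSG, the cathepsin G gene, rose by 0.42 ± 0.07.

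Several receptors of maturing myeloid cells fell. CLEC5A, an activating lectin of monocytes and neutrophils, was at 12.1, 11.4 and 12.8 CPM with DMSO and 3.22, 2.88 and 2.92 CPM with AML874 and fell by 2.01 ± 0.13 (edgeR adjusted p = 7.49e-09). ITGAX, the integrin CD11c, was at 15.5, 13.5 and 13.7 CPM with DMSO and 6.54, 6.12 and 5.12 CPM with AML874 and fell by 1.26 ± 0.13. Both genes were lower in every AML874 library than in any DMSO library. CSF1R and CSF3R, the receptors for macrophage and granulocyte growth factors, fell by 0.98 ± 0.06 and 0.52 ± 0.03, and CD33, SIRPA and IL1RAP, antigens studied as targets on leukaemia cells, by 0.57 ± 0.03, 0.66 ± 0.03 and 0.60 ± 0.05. In the whole list of myeloid cytokine receptors 10 of 19 fell and 6 rose. Among 15 surface antigens 6 rose and 6 fell, with CD44, an adhesion receptor, rising by 0.56 ± 0.03 and CD96 by 0.52 ± 0.03.

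The largest rise among protein-coding genes of at least 5 CPM in 1 group was that of a progenitor gene. CD34, a surface protein of haematopoietic stem and progenitor cells, was at 0.622, 0.736 and 0.789 CPM in the DMSO libraries and 5.53, 6.97 and 6.15 CPM in the AML874 libraries, a log2 rise of 3.12 ± 0.11 (edgeR adjusted p = 3.91e-22). KIT, the stem cell factor receptor, was at 0.124, 0.283 and 0.212 CPM with DMSO and 0.789, 0.896 and 0.756 CPM with AML874 and rose by 1.97 ± 0.25. FLT3, another receptor kinase of progenitors, was at 77.8, 69.8 and 74.2 CPM with DMSO and 112, 106 and 104 CPM with AML874 and rose by 0.54 ± 0.05. CD38, which rises as progenitors commit, was at 50.7, 52.5 and 51.7 CPM with DMSO and 112, 115 and 111 CPM with AML874 and rose by 1.12 ± 0.03. All AML874 libraries were above all DMSO libraries in these genes. The stem and progenitor list as a whole had 8 rises and 5 falls among 20 genes, with a median of 0.08. MECOM, a stem cell transcription factor, fell by 0.75 ± 0.21, and MEIS1, ERG and HLF were at 0.07, 0.05 and 0.31 and did not pass.

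Among 28 haematopoietic transcription factors 9 rose and 13 fell. Of the C/EBP factors of granulocyte and monocyte maturation, CEBPE was at -0.09 ± 0.04 and did not pass, although it did with the replicate block (edgeR adjusted p = 0.0414). CEBPA fell by 0.45 ± 0.06, CEBPB by 0.50 ± 0.04 and CEBPD by 0.56 ± 0.04. SPI1 fell by 0.28 ± 0.03 and NFE2, a factor of blood maturation, fell by 0.99 ± 0.08. CEBPA was at 165, 169 and 148 CPM with DMSO and 119, 117 and 117 CPM with AML874, with no overlap. ETS2 was at 172, 172 and 167 CPM with DMSO and 386, 399 and 388 CPM with AML874 and rose by 1.20 ± 0.02, and IKZF2, LMO2 and MEF2C by 0.48, 0.40 and 0.47. RUNX1 fell by 0.17 ± 0.02. Of 17 dendritic cell genes 8 rose and 3 fell, among them LAMP5, a plasmacytoid marker, from 60.6 ± 0.412 to 139 ± 3.36 CPM (mean ± SD, n = 3), a rise of 1.20 ± 0.03, and PLAC8 by 0.84 ± 0.02. BATF3 fell by 0.48, TCF4, a factor of plasmacytoid cells, fell by 0.31 and CD83 fell by 0.13. The CD83 call was lost without any 1 of 4 libraries, replicates 1 and 2 of DMSO and 1 and 3 of AML874, with log2 changes of -0.11, -0.13, -0.11 and -0.12. CCR7, AXL and CLEC10A rose too but stayed under 1 CPM. With only genes of 1 CPM in 3 libraries tested, 3 dendritic genes rose. Among monocyte and macrophage genes 7 of 18 rose and 4 fell, and 4 of the 7 rises were MPEG1 and the MS4A genes named above.

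**Figure D2:**
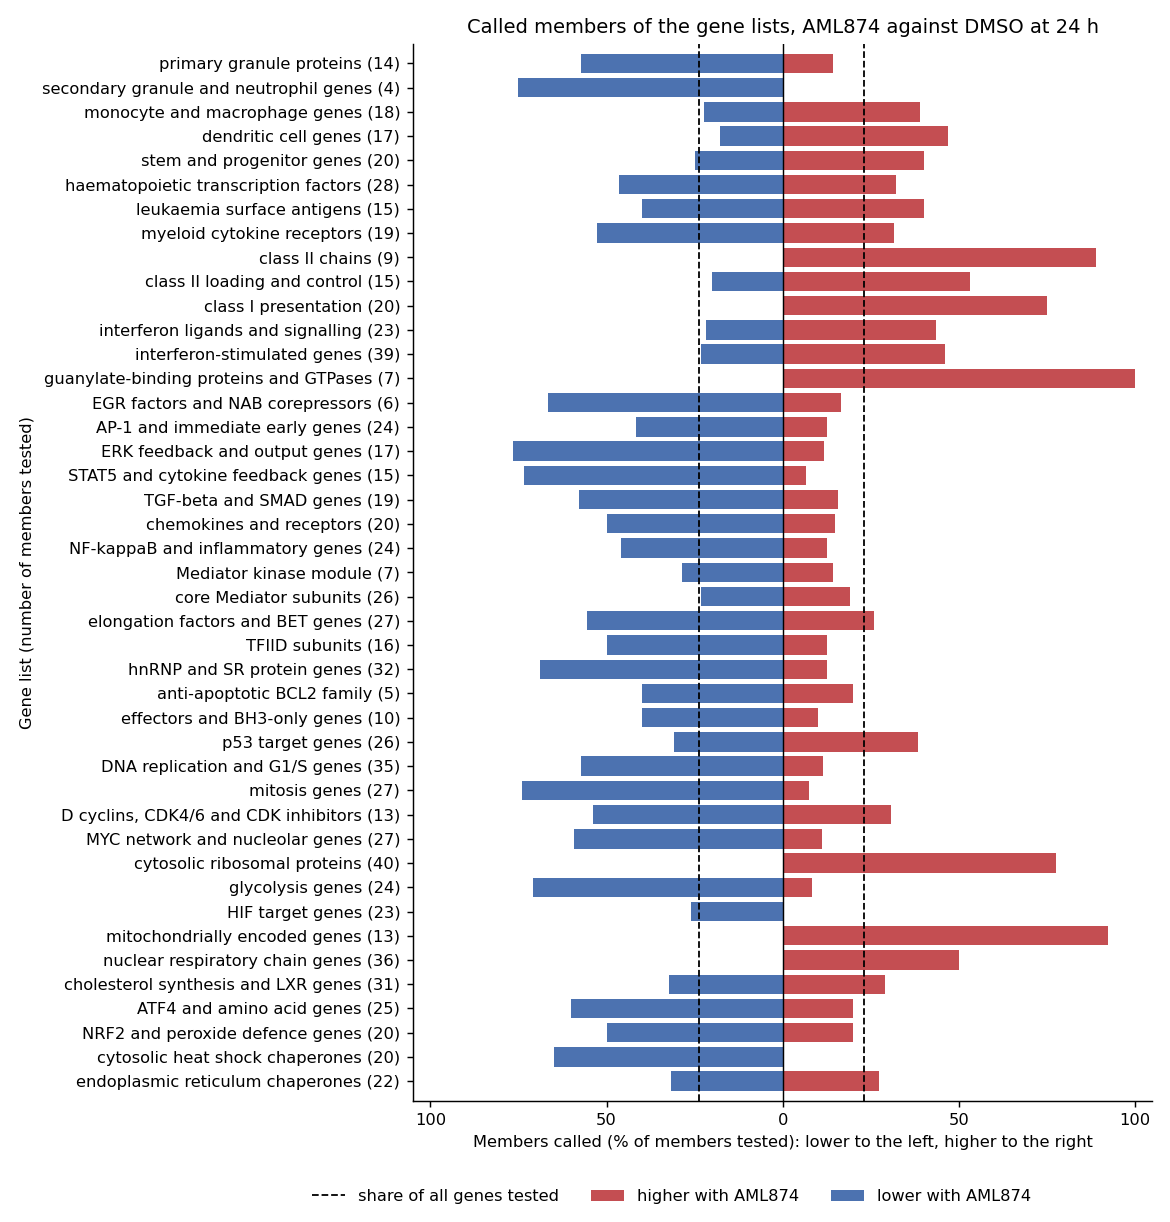
Share of the members tested that were called higher (bars to the right) or lower (bars to the left) with AML874 at 24 h, for each gene list, with the number tested in brackets and dashed lines at the shares of all genes tested (23.1% higher and 23.7% lower). Guanylate-binding proteins, mitochondrially encoded genes and class II chains reach furthest to the right, and ERK feedback genes furthest to the left.

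Genes that growth factor signalling turns on were lower. Of 17 genes of ERK output, most of them brakes on the pathway, 13 fell and 2 rose, and the median was -0.59. EGR1, a zinc-finger factor made within minutes of stimulation, was at 129, 101 and 115 CPM in the DMSO libraries and 18.5, 15.3 and 13.2 CPM in the AML874 libraries, and fell by 2.87 ± 0.22 (edgeR adjusted p = 1.25e-07). NAB2, a corepressor that EGR1 induces, was at 12.0, 9.33 and 10.1 CPM with DMSO and 4.27, 4.16 and 4.10 CPM with AML874 and fell by 1.32 ± 0.09. ETV5, an ETS factor downstream of ERK, was at 21.9, 18.6 and 19.0 CPM with DMSO and 7.68, 7.76 and 7.60 CPM with AML874 and fell by 1.37 ± 0.06. In all 3 genes the groups were far apart, and the EGR1 promoter above holds 2 CArG boxes. EGR2 fell by 0.95 ± 0.21 and NAB1 by 0.43 ± 0.04, while the weak EGR4 rose by 1.01 ± 0.20 and EGR3 was at 0.17 ± 0.35 and did not pass. SPRY4 and ETV4 fell by 1.65 ± 0.35 and 1.62 ± 0.22. The feedback inhibitors SPRED1, SPRED2, SPRY1 and SPRY2 fell by 1.02, 0.59, 0.60 and 0.63. SPRED1 was at 27.4, 27.5 and 28.6 CPM with DMSO and 13.5, 14.1 and 13.6 CPM with AML874. DUSP6, the ERK phosphatase, fell by only 0.11 ± 0.04, a call lost without replicate 1 of DMSO (-0.09) or replicate 3 of AML874 (-0.09), and DUSP5 and DUSP10 rose by 0.32 and 0.45. HBEGF, a ligand of the EGF receptor, fell by 1.21 ± 0.07.

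AP-1 and other immediate early genes fell in 10 of 24 and rose in 3, near the share of falls among coding genes of at least 10 CPM. FOS was at 48.6, 43.5 and 44.9 CPM with DMSO and 27.5, 26.4 and 25.5 CPM with AML874 and fell by 0.79 ± 0.10, and JUNB, IER2 and FOSL1 fell by 0.54 ± 0.04, 0.69 ± 0.04 and 0.77 ± 0.06. ZFP36L1, which marks mRNAs for decay, was at 14.6, 10.8 and 11.9 CPM with DMSO and 6.77, 4.91 and 4.51 CPM with AML874 and fell by 1.20 ± 0.13. KLF2, KLF6 and ATF3 did not pass, and SRF, which binds CArG boxes, rose by 0.18 ± 0.03.

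Genes of other pathways that the kinase module is known to touch fell more often than they rose. Coding genes of at least 10 CPM did so too. In the list of STAT5 and cytokine feedback genes 11 of 15 fell and 1 rose, with a median of -0.31. TNFRSF12A, the TWEAK receptor, was at 10.7, 10.1 and 9.99 CPM with DMSO and 4.04, 3.44 and 3.31 CPM with AML874 and fell by 1.51 ± 0.07, PIM1, a survival kinase, was at 189, 184 and 179.8 CPM with DMSO and 132, 131 and 125 CPM with AML874 and fell by 0.52 ± 0.03, and SOCS2 and CISH, feedback inhibitors, fell by 0.33 ± 0.04 and 0.23 ± 0.03. BCL6, which STAT5 is known to repress, was at 28.1, 26.6 and 24.7 CPM with DMSO and 49.2, 46.9 and 47.4 CPM with AML874 and rose by 0.85 ± 0.07 (edgeR adjusted p = 3.5e-08). The groups did not overlap in any of these genes. STAT5A and STAT5B were at -0.03 and 0.05 and did not pass. In the TGF-beta and SMAD list 11 of 19 fell and 3 rose: TGFB1, the ligand, fell by 0.56 ± 0.03, the inhibitory SMAD6 and SMAD7 by 0.64 ± 0.04 and 0.28 ± 0.05, and the signal carrier SMAD3 was at 115, 112 and 107 CPM with DMSO and 178, 176 and 169.8 CPM with AML874 and rose by 0.65 ± 0.03.

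Chemokines and inflammatory genes fell more often than they rose, as did coding genes of at least 10 CPM as a whole. Of 20 chemokine and receptor genes 10 fell, and 6 did without replicate 3 of AML874, while 3 rose, CCR1 and CCR2 among them. CCL2, the monocyte attractant and ligand of CCR2, was at 17.2, 12.0 and 13.4 CPM with DMSO and 5.78, 4.04 and 3.67 CPM with AML874 and fell by 1.65 ± 0.16 (edgeR adjusted p = 1.32e-06). CXCL8, the neutrophil attractant, was at 255, 174 and 189.6 CPM with DMSO and 126, 105 and 92.3 CPM with AML874 and fell by 0.93 ± 0.22, with wide spread in both groups and no overlap. CXCL16 and CX3CR1 fell by 0.77 ± 0.07 and 0.85 ± 0.08. Among 24 NF-kappaB and inflammatory genes 11 fell, also near the share of coding genes of at least 10 CPM. PLAUR fell by 0.82 and TNFAIP2 fell by 0.65. The 3 rises were small, and without replicate 2 of AML874 none of the 24 rose. TNFAIP3, a feedback inhibitor of this pathway, was at 0.15 ± 0.15 and did not pass.

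Of the kinase module itself, CDK8, CDK19, CCNC and MED12 did not pass, with log2 changes of -0.05, 0.06, 0.02 and 0.04 and 95% intervals of -0.12 to 0.02, -0.05 to 0.16, -0.04 to 0.08 and -0.03 to 0.10. CDK8 was at 38.1, 37.9 and 36.8 CPM with DMSO and 36.2, 36.2 and 36.4 CPM with AML874, so its groups did not overlap although the test was not passed. MED13L, the paralogue of MED13, was at 319, 308 and 299 CPM with DMSO and 453, 459 and 452 CPM with AML874 and rose by 0.56 ± 0.04 (edgeR adjusted p = 4.46e-10), MED13 fell by 0.10 ± 0.03 and MED12L by 0.43 ± 0.11. Core Mediator subunits had changes from -0.23 to 0.18, with 5 rises and 6 falls among 26 genes.

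The elongation machinery fell more than it rose, in 15 against 7 of 27 genes. Among all coding genes of at least 10 CPM 41.6% fell and 24% rose, the background for the counts of this paragraph. HEXIM1, which holds the elongation kinase P-TEFb inactive, was at 59.6, 59.7 and 56.8 CPM in the DMSO libraries and 25.7, 24.5 and 24.9 CPM in the AML874 libraries, and fell by 1.23 ± 0.04 (edgeR adjusted p = 2.44e-24). Its paralogue HEXIM2 was at 2.22, 2.26 and 2.40 CPM with DMSO and 3.32, 3.19 and 3.30 CPM with AML874 and rose by 0.51 ± 0.11. The paralogues thus moved in opposite directions, with no overlap of the groups in either. The scaffold gene AFF3 rose by 0.68 ± 0.03 and AFF1 by 0.53 ± 0.07, while AFF4 fell by 0.15 ± 0.03. BRD2 and BRD3, which read acetylated histones, fell by 0.28 and 0.13. Of 16 subunits of TFIID, the factor that marks promoters for RNA polymerase II, 8 fell and 2 rose, with TAF5 falling by 0.40 ± 0.04. Of 32 hnRNP and SR protein genes, which shape pre-mRNA splicing, 22 fell and 4 rose. HNRNPDL, SRSF1 and HNRNPA2B1 fell by 0.39, 0.33 and 0.28, and 3 of the 4 rises were CLK1, CLK3 and CLK4, kinases of SR proteins, by 0.30, 0.33 and 0.47.

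The BCL2 family is of interest because the title names venetoclax, a BCL2 inhibitor. BCL2 was at 426, 407 and 399.7 CPM with DMSO and 491, 489 and 465 CPM with AML874 and rose by 0.23 ± 0.03 (edgeR adjusted p = 4.59e-08). MCL1, the anti-apoptotic member that can stand in for BCL2, was at 453, 444 and 439.6 CPM with DMSO and 363, 373 and 367 CPM with AML874 and fell by 0.28 ± 0.02. BCL2L1, which encodes BCL-XL, was at 36.3, 37.0 and 34.1 CPM with DMSO and 27.4, 29.4 and 29.5 CPM with AML874 and fell by 0.32 ± 0.04. The groups did not overlap in these genes, although the changes were small. BCL2A1 and BCL2L2 were weak and did not pass. Of 10 effectors and BH3-only genes, which promote apoptosis, 4 fell and 1 rose: BNIP3 fell by 0.73, BMF by 0.41, BID by 0.17 and BAX by 0.15, PMAIP1 rose by 0.20 ± 0.06, and BCL2L11, BBC3 and BAK1 did not pass. The PMAIP1 call was lost without any 1 of 4 libraries, replicates 2 and 3 of DMSO and 1 and 2 of AML874, with log2 changes of 0.16, 0.18, 0.14 and 0.19. The BNIP3 call was lost without replicate 1 of DMSO (-0.62) or replicate 3 of AML874 (-0.63).

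Cell division genes were slightly lower. The median was -0.19 for 27 mitosis genes, of which 20 fell and 2 rose, and -0.089 for 35 replication genes, of which 20 fell and 4 rose. MKI67, the proliferation marker, went from 972 ± 8.30 to 696 ± 27.8 CPM and fell by 0.48 ± 0.03. CCND3, the D cyclin of many blood cells, was at 78.2, 74.3 and 72.4 CPM with DMSO and 46.6, 46.6 and 48.6 CPM with AML874 and fell by 0.67 ± 0.04, CDKN2D, an inhibitor of CDK4 and CDK6, fell by 0.74 ± 0.06, and CDKN1B, which encodes p27, was at 67.8, 65.4 and 64.2 CPM with DMSO and 89.7, 88.3 and 88.9 CPM with AML874 and rose by 0.43 ± 0.04. Each of these genes separated the groups completely. CDK6 rose by 0.30 ± 0.02. Of 26 p53 targets 10 rose and 8 fell, with TP53I3 rising by 0.72 and FDXR by 0.52 and CDKN1A and MDM2 falling by 0.47 and 0.24. MYC was at 689.9, 656 and 643 CPM with DMSO and 571, 565 and 555 CPM with AML874 and fell by 0.23 ± 0.03, and 16 of 27 genes of its network and the nucleolus fell while 3 rose.

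Energy genes split by source. Of 13 mitochondrially encoded genes 12 rose, with a median of 0.37, and 0 fell. Mitochondrial genes held 7.74 to 8.16% of the counts in the AML874 libraries and 6.11 to 6.18% in the DMSO libraries. MT-CO1, a subunit of cytochrome oxidase, was at 13431, 12824 and 12822 CPM with DMSO and 17865, 17123 and 18117 CPM with AML874 and rose by 0.44 ± 0.03. Nuclear respiratory chain genes rose in 18 of 36 by little, with a median of 0.063. Ribosomal protein genes rose in 31 of 40 with a median of 0.097, the strongest being RPS25 at 0.22 ± 0.03.

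Among 24 glycolysis genes there were 17 falls and 2 rises, and the median was -0.33. LDHA, lactate dehydrogenase, was at 2092, 1803 and 1880.4 CPM with DMSO and 1280.5, 1195 and 1130.5 CPM with AML874 and fell by 0.68 ± 0.07 (edgeR adjusted p = 1.79e-06). HK2, hexokinase, was at 399, 350.2 and 354 CPM with DMSO and 259.7, 249.7 and 232 CPM with AML874 and fell by 0.57 ± 0.08, and GAPDH fell by 0.28 ± 0.03. In each gene replicate 1 of DMSO was the highest library. Genes of the hypoxia factor HIF, many of them glycolytic, varied between replicates as well: the mean level of 23 HIF targets was 5.40, 5.13 and 5.14 log2 CPM with DMSO and 5.10, 4.93 and 4.76 with AML874. Of them 6 fell and 0 rose, and from 2 to 11 fell over the alternative settings, with 2 both without replicate 1 of DMSO and without replicate 3 of AML874. The part of this variation in the fall of glycolysis genes was not tested.

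Some genes of the actin cytoskeleton changed strongly. TPM4, a tropomyosin that coats actin filaments, was at 305, 283 and 277 CPM in the DMSO libraries and 841, 813 and 781 CPM in the AML874 libraries, a log2 rise of 1.49 ± 0.03 (edgeR adjusted p = 9.43e-22). LIMA1, which bundles filaments, was at 18.0, 17.6 and 17.1 CPM with DMSO and 60.3, 54.6 and 51.9 CPM with AML874 and rose by 1.67 ± 0.08, and FMN1, a formin, rose by 1.78 ± 0.08. The actin genes ACTG1 and ACTB were lower: ACTG1 was at 5334, 4981 and 4757 CPM with DMSO and 3975, 3826 and 3655 CPM with AML874 and fell by 0.40 ± 0.03, and ACTB fell by 0.11 ± 0.03. No library of one group lay within the range of the other for TPM4, LIMA1 or ACTG1. Other large changes of single genes were the rises of GPR174, a lysophosphatidylserine receptor (2.62 ± 0.07), SDK2 (1.97 ± 0.08), GGT5 (1.79 ± 0.09), MEGF10, an engulfment receptor (1.51 ± 0.05), and HIC1, a repressor (1.44 ± 0.08). Large falls were those of SSH3, a cofilin phosphatase (-1.80 ± 0.10), KCNE3 (-1.54 ± 0.08), MMP25, a leukocyte metalloproteinase (-1.44 ± 0.06), EMILIN1 (-1.35 ± 0.10), RGL4 (-1.33 ± 0.08), THEMIS2 (-1.27 ± 0.05) and C12orf57 (-1.15 ± 0.06). Of 20 NRF2 and peroxide defence genes 10 fell and 4 rose, with ME1, malic enzyme, falling by 1.06 ± 0.07 and CAT, the catalase gene, rising by 0.74 ± 0.02.

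The 24 h effect was set against the effect of AML874 at 8 h, which rests on its own AML874 and DMSO libraries and called 8287 genes (39.6%), 4125 higher (19.7%) and 4162 lower (19.9%). Across 13052 genes of at least 1 CPM the log2 changes at the 2 times had Pearson r = 0.66 and Spearman rho = 0.60, a description over genes, which are not independent. Of the genes called higher at 24 h, 2479 were also higher at 8 h and 273 lower, and of those called lower, 2678 were lower and 258 higher. The effect itself differed between the times in 4944 genes (23.6%), with 2330 (11.1%) more positive and 2614 (12.5%) more negative at 24 h. With library totals in place of TMM this split was 1724 and 3884. Of the 4944, 849 had been called at both times in the same direction and were larger at 24 h, 467 were smaller, and 531 had opposite signs.

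CD34 gave the largest late gain among the named genes that passed this test: its 8 h change was 0.88 ± 0.13, from 0.910 ± 0.0817 to 1.66 ± 0.244 CPM, and the 24 h change exceeded it by 2.24 ± 0.17 (edgeR adjusted p = 4.89e-12). MPO fell by 0.98 ± 0.06 at 8 h, and the 24 h effect was lower by 1.89 ± 0.09. Class II genes had moved less at 8 h, where 3 of the 9 chain genes rose. HLA-DRA was at 0.14 ± 0.03 and HLA-DOA at 0.61 ± 0.12 at 8 h, and both differed from their 24 h effect (edgeR adjusted p = 1.87e-13 and 7.19e-09). GBP4, PCLO, a scaffold gene, and ZCWPW1, a histone reader gene, likewise moved late, with 8 h changes of 0.26, -0.07 and -0.24 against 2.16, 1.35 and 1.16 at 24 h. CCR1 was not called at 8 h, and its effect gained 1.29 ± 0.21. Among the late falls were CCL2, TNFRSF12A and ETV5, at 0.18, -0.45 and -0.32 at 8 h.

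Other genes had most of their change by 8 h. EGR1 was at -3.81 ± 0.25 at 8 h and HEXIM1 at -1.57 ± 0.04. For HEXIM1 the 24 h effect was nearer to 0 than the 8 h effect, by 0.34 ± 0.05. For EGR1 the difference of 0.94 ± 0.33 did not pass (edgeR adjusted p = 0.0569), although it did with DESeq2 and with limma-voom. RSAD2, MS4A6A, SDK2 and MEGF10 had reached 1.73, 1.36, 1.72 and 1.26 by 8 h.

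Some groups turned around. Heat shock chaperones rose in 9 of 20 and fell in 4 at 8 h, and at 24 h 13 fell and 0 rose. HSPA1A, the inducible HSP70, had a log2 change of 0.38 ± 0.06 at 8 h and at 24 h was at 16.3, 16.2 and 14.4 CPM with DMSO and 10.8, 12.0 and 12.1 CPM with AML874 and fell by 0.43 ± 0.06. BAG3, HSPH1, STIP1 and CHORDC1, cochaperones and relatives, also rose at 8 h and fell at 24 h. HSPA5, the main chaperone of the endoplasmic reticulum, and MANF did the same, from 0.14 and 0.33 to -0.36 and -0.17. Genes of ATF4 and amino acid supply rose in 12 of 25 at 8 h and fell in 15 at 24 h, with the cystine transporter SLC7A11 going from 0.20 ± 0.07 to -0.74 ± 0.07. In the opposite sense FLT3 was at -0.34 ± 0.06 at 8 h and 0.54 ± 0.05 at 24 h, and GBP2 at -0.54 ± 0.14 and 0.66 ± 0.12. Each of these single genes was called at both times and for the difference between them. Among cholesterol synthesis and LXR genes 14 of 31 rose at 8 h, and at 24 h 9 rose and 10 fell, with medians of 0.15 and 0.032. Over the alternatives 7 to 11 rose and 7 to 11 fell at 24 h. Ribosomal protein genes, with 31 of 40 higher at 24 h, had 2 rises and 9 falls at 8 h, near the share of all genes lower at that time.

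**Figure D3:**
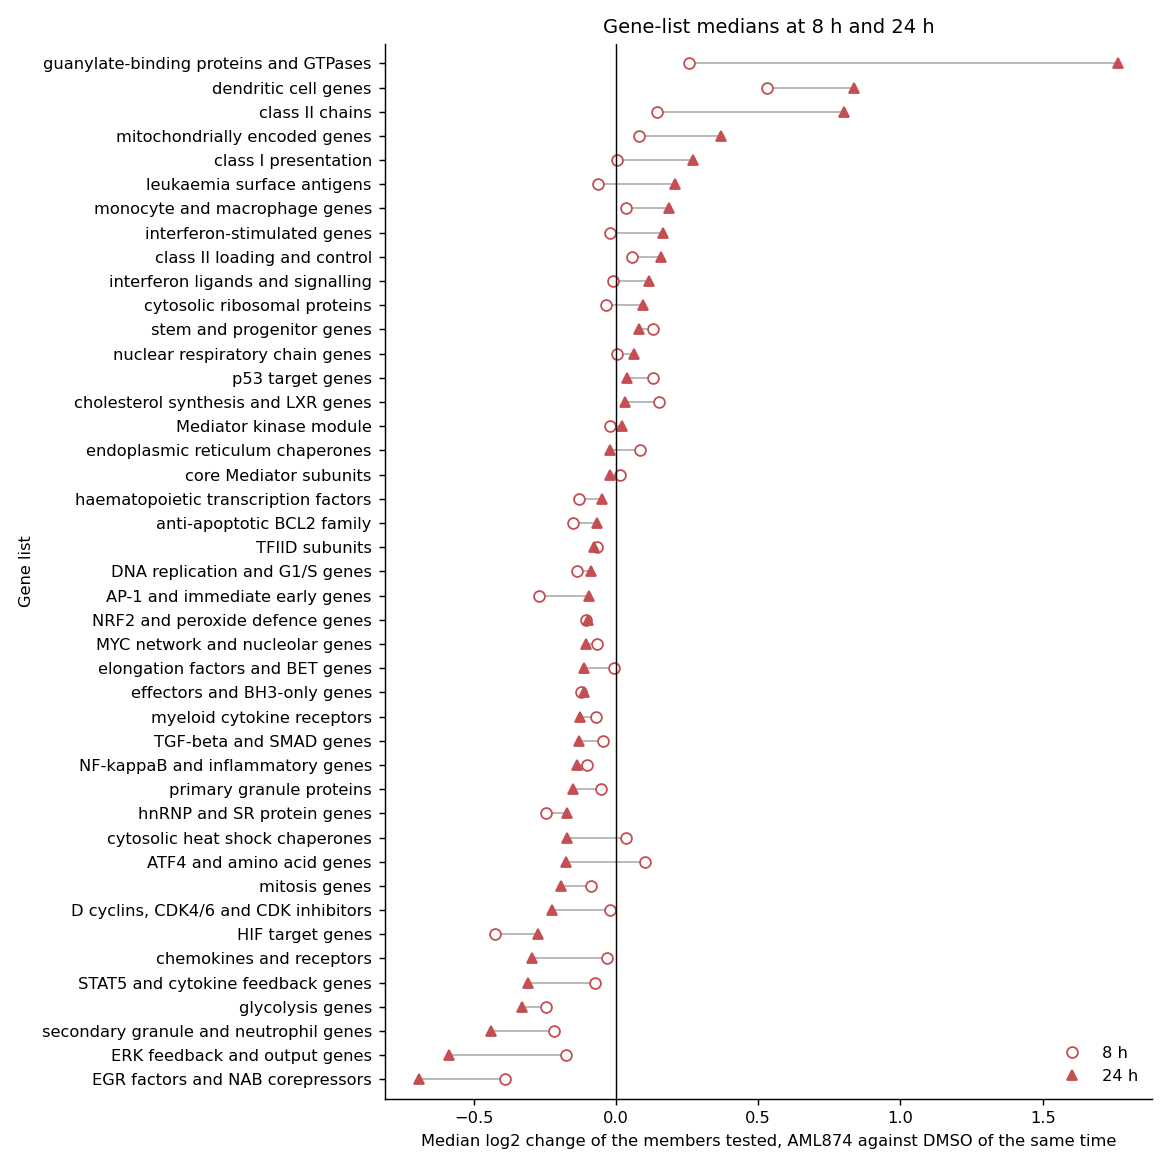
Median log2 change of the members tested of each gene list with AML874 against DMSO of the same time, at 8 h (open circles) and 24 h (filled triangles). Class II chains and guanylate-binding proteins gain most between the times, and the medians of heat shock, ATF4 and endoplasmic reticulum chaperone genes cross 0 downwards.

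AML874 was set against SEL120-34A at 24 h to see where the compounds part. Doses are not given and may not be matched. SEL120-34A changed 7879 genes (37.7%) against DMSO. Both were compared with the same 3 DMSO libraries, so their changes are given side by side and the direct contrast between the compounds is the test. It called 4109 genes (19.6%), 1674 higher (8%) and 2435 lower (11.6%) with AML874. Of the 4833 genes that rose with AML874, 1218 were further from DMSO than with SEL120-34A, 167 were nearer and 3448 were not called different. Of the 4966 that fell, 1755 were further, 87 nearer and 3124 not called. The calls that chose these genes and the direct contrast share the AML874 libraries, which favours the further side. These counts therefore do not rank the compounds by strength.

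MPO and CLEC5A were lower with AML874 than with SEL120-34A. MPO was at 4.79 ± 0.473 CPM with AML874 and 12.1 ± 1.00 CPM with SEL120-34A (mean ± SD, n = 3), a direct difference of -1.34 ± 0.07 (edgeR adjusted p = 1.77e-15). CLEC5A was at 3.00 ± 0.184 and 13.2 ± 1.53 CPM, a difference of -2.13 ± 0.13, and with SEL120-34A its change from DMSO was 0.12 ± 0.11 and did not pass. HEXIM1 changed by -1.23 with AML874 and -0.44 with SEL120-34A, a difference of -0.79 ± 0.04. Rises that were larger with AML874 included HLA-DOA (2.13 and 1.50), RSAD2 (2.15 and 1.46), MPEG1 (2.44 and 1.89) and CD38 (1.12 and 0.62), each called in the direct contrast.

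In the other direction, SERPINB2 and SERPINB10, neighbouring protease inhibitor genes, were at 0.17 ± 0.15 and 0.11 ± 0.11 with AML874 and did not pass, against 1.85 ± 0.14 and 1.56 ± 0.10 with SEL120-34A. Their direct differences were -1.68 ± 0.14 and -1.45 ± 0.10 (edgeR adjusted p = 3.74e-08 and 1.15e-12). ID2, an inhibitor of differentiation factors, fell by 0.16 ± 0.05 with AML874 (by 0.10 and not called without its replicate 3) and by 1.10 ± 0.05 with SEL120-34A, a difference of 0.94 ± 0.05. CD34 rose slightly less with AML874, by a difference of -0.30 ± 0.09, which did not pass without replicate 1 of AML874 (-0.22) or replicate 3 of SEL120-34A (-0.29). CLK1 rose by 0.30 and 0.88, and ZDHHC11 changed by -0.62 and 0.68, that is, in opposite directions.

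Several genes with large or named changes were not shown to differ between the compounds, and the intervals bound how far apart they could be. The direct difference was 0.05 for GPR174 (95% interval -0.07 to 0.18), -0.01 for BCL2 (-0.07 to 0.04), 0.02 for SPRY2 (-0.07 to 0.11) and -0.07 for CCL2 (-0.45 to 0.31). For EGR1 the difference of 0.58 had a wide interval, 0.06 to 1.09, and did not pass (edgeR adjusted p = 0.115), although it did with DESeq2.

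**Figure D4:**
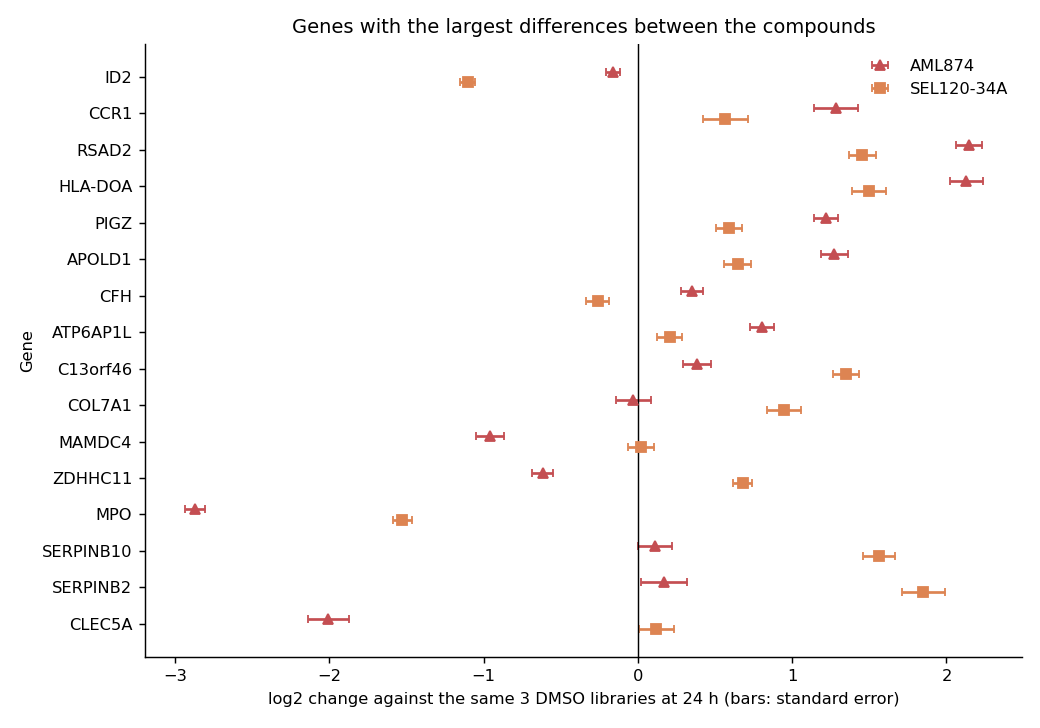
Log2 change against the same 3 DMSO libraries at 24 h for AML874 (triangles) and SEL120-34A (squares), with the standard error as bars, for the 16 genes of at least 5 CPM with the largest called differences between the compounds. CLEC5A, MPO and ZDHHC11 lie lower with AML874, and SERPINB2 and SERPINB10 lie near 0 with AML874 and above 1 with SEL120-34A.

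Outside the protein-coding set, antisense and intergenic transcripts rose more often than they fell, and processed pseudogenes did not. Of 1697 antisense transcripts tested, which run against a coding gene, 564 rose and 73 fell, with a median log2 change of 0.37. Of 1389 intergenic long non-coding RNAs 439 rose and 83 fell, with a median of 0.32. Processed pseudogenes had 81 rises and 100 falls among 2004 and a median of -0.059. The shift was larger in weak transcripts: the antisense median was 0.42 under 1 CPM, 0.34 from 1 to 10 CPM and 0.05 from 10 CPM, against 0.21, 0.0013 and -0.047 for coding genes of the same levels. Antisense transcripts held 0.307 to 0.328% of the counts with DMSO and 0.364 to 0.371% with AML874, with no overlap. Without replicate 1 of AML874, 480 antisense transcripts rose and 69 fell, and 316 and 48 did under a filter of 1 CPM. At 8 h the antisense median was 0.17, with 350 rises and 118 falls. With SEL120-34A at 24 h it was 0.24.

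HTT-AS, antisense to the huntingtin gene, was at 0.110, 0.0744 and 0.114 CPM with DMSO and 1.25, 1.12 and 1.19 CPM with AML874 and rose by 3.57 ± 0.24 (edgeR adjusted p = 1.46e-14). TRDC, the constant segment of the T cell receptor delta chain, was at 1.46, 1.27 and 1.09 CPM with DMSO and 10.4, 9.33 and 9.65 CPM with AML874 and rose by 2.94 ± 0.11. GVINP1, a pseudogene of an interferon-induced GTPase, was at 3.37, 3.21 and 3.79 CPM with DMSO and 13.0, 12.6 and 12.8 CPM with AML874 and rose by 1.89 ± 0.07. Each separated the groups several-fold. Among the falls was MIR223HG, the host transcript of a myeloid microRNA, at 49.0, 50.4 and 51.5 CPM with DMSO and 20.5, 20.5 and 19.3 CPM with AML874. It fell by 1.32 ± 0.04. It was lower still at 8 h, at -2.15 ± 0.04, with a difference of 0.83 ± 0.06 between the times (edgeR adjusted p = 4.19e-13).

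**Figure D5:**
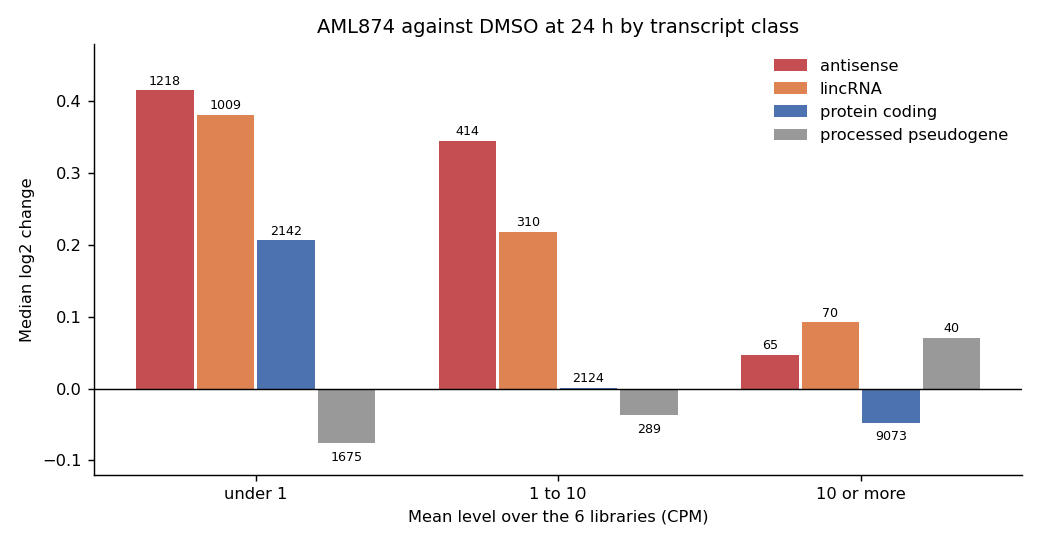
Median log2 change with AML874 against DMSO at 24 h by transcript class and by mean level over the 6 libraries in CPM, with the number of genes tested at each bar. Antisense and intergenic transcripts are above 0 at every level and furthest so under 10 CPM, and processed pseudogenes are below 0 under 10 CPM.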

How the data were processed

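RNA was extracted with TRIzol and spin columns and polyadenylated RNA was sequenced, per the labels' protocols. The authors deposited raw read counts per gene (unstranded, forward and reverse), expected counts and TPM for each library. Alignment with STAR 2.7.1a to GRCh38 and quantification with RSEM 1.3.2 are per the submitters' processing notes, and the annotation release is not given in the sources used here. Reverse counts were used, since they hold nearly all gene reads. RSEM's deposited expected counts, rounded to whole numbers, served as an alternative, and the deposited TPM only to check marker genes. Symbols were found for 60340 of 60609 gene identifiers, positions and classes came from GENCODE 29 for 58502, and promoters from RefSeq GRCh38.p14.

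Genes with enough counts by filterByExpr (20920) were fitted in edgeR 4.0.16 (R 4.3.3) with TMM scaling and the robust quasi-likelihood test, in 1 model of all 6 groups with 3 libraries each, and p-values were adjusted over all genes by Benjamini-Hochberg. The genes left out held 0.0163% of the counts. The contrasts were AML874 against DMSO at 24 h, that effect minus the 8 h effect, and AML874 against SEL120-34A at 24 h. Standard errors are the log2 change divided by the square root of F. The procedure was tested on simulated counts in which few genes changed. That test therefore does not bear on the scaling when many genes change, as they did here. At these depths a count of 0 in 1 library allows up to 0.0216 to 0.0257 CPM, set at 3 counts, and such limits cover counting error only.

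The gene lists, members and naming rule were chosen with earlier results of these data known. Genes were named by rule: the largest changes among protein-coding genes of at least 5 CPM with no overlap, the largest changes in CPM, up to 6 members of each list by p, the largest non-coding changes from 1 CPM, and the largest differences between times and compounds. Further list members named to account for a count were chosen after their values were seen. Replicate numbers come from the titles. The deviations of same-numbered DMSO and AML874 libraries at 24 h correlated at 0.42, 0.20 and 0.27. Those of same-numbered AML874 and SEL120-34A libraries at 24 h correlated at -0.42, -0.21 and 0.18. Replicate 3 of AML874 also correlated with replicate 2 of DMSO at 0.23. The numbers were thus not shown to pair the samples, and a fit with the number as a block was an alternative. No pair of replicates agreed within sampling noise. Alternatives were other scalings and filters, DESeq2 1.42.0, limma 3.58.1 (voom), fits of only the groups compared, other count columns and leaving out each library. Some genes that the rule names are not reported here.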

Additional observations from a re-analysis of the deposited data

Results flagged for a closer look

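Some genes had a different AML874 effect at 24 h than at 8 h by a test of the difference itself. Differences are in log2, 24 h effect minus 8 h effect, and each passed in edgeR. The effect was more positive in 2330 genes and more negative in 2614. Among those named, it was more positive at 24 h for CD34 (2.24), GPR174 (1.66), GBP4 (1.90), HLA-DOA (1.52), PCLO (1.42), CCR1 (1.29) and FCER2 (1.25). It was more negative for MPO (-1.89), CLEC5A (-1.06), CCL2 (-1.84), TNFRSF12A (-1.05), TSPOAP1 (-1.17), ETV5 (-1.05) and ZFP36L1 (-1.12). Genes called in opposite directions at the 2 times were ZCWPW1 (1.41), CDK6 (0.36), DUSP10 (0.59), FLT3 (0.88) and GBP2 (1.20), which went from lower to higher, and ZNF536 (-1.03), BAG3 (-0.41), CHORDC1 (-0.42), HSPA1A (-0.81), HSPA5 (-0.50), HSPH1 (-0.33), MANF (-0.49), MS4A3 (-0.71), SLC7A11 (-0.94) and STIP1 (-0.32), which went from higher to lower. Genes outside the fit gave a signal in replicate 1 of AML874 at 24 h, where 47 genes reached 0.1 CPM that were under 0.03 CPM in each of the other 17 libraries.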

How the results depend on the processing

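Over the alternatives, AML874 raised 4251 to 4910 genes and lowered 4118 to 5282 at 24 h. With the replicate number as a block, 4766 rose and 4908 fell. For AML874 against DMSO at 24 h, the block changed the call of no gene named in the report other than CEBPE. For the difference between 24 h and 8 h, library totals in place of TMM moved the share of more positive effects from 47.1% to 30.7%. Without AML874 replicate 1, 814 genes rose and 194 fell at least 2-fold, and with a filter of 1 CPM 242 and 70 did, since fewer weak genes were tested. The list counts and transcript-class counts under each alternative were added after seeing the data. The p-values rest on 3 libraries a group whose independence the labels do not state. Antisense and overlapping genes can share reads, although counting used strand: with unstranded counts 442 antisense transcripts rose and 68 fell of 1445 tested. No dose is given for either compound, so a difference between compounds and one between doses cannot be told apart.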
